A study of Mus musculus with 2 samples.

Results

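The 10 transcripts described here belong to the heat shock protein (HSP) system and were examined for contacts with the RNA-binding protein Tia1 in activated mouse B lymphocytes. The genes were taken by name, out of 9207 genes with at least 1 crosslink site in the list made from both replicates together: the inducible members Hsp90aa1, Hsph1 and Dnajb1, the constitutive members Hspa8, Hspa4, Hsp90ab1 and Dnaja1, the chaperonins Hspd1 and Hspe1, and the transcription factor Hsf1. Of these, 8 encode proteins of the cytosol and nucleus, whereas Hspd1 and Hspe1 encode proteins of the mitochondrial matrix, so they were kept apart from both classes and are cytosolic only as mRNAs.

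All values come from iCLIP, a crosslinking and immunoprecipitation assay that resolves single nucleotides, in which UV light links a protein to the RNA it touches and the cDNAs made from the recovered RNA stop beside the linked nucleotide. The cells were primary splenic B cells of adult C57BL/6 mice with no mutant allele or transgene named, all cultured with the bacterial product lipopolysaccharide (LPS) for 48 h, and RNA was taken from cytoplasmic extracts. There were 2 samples, replicates 1 and 2 of 1 group that the methods treat as separate experiments, and no unstimulated, heat-treated or isotype control sample was analysed here. Titles and methods name Tia1 as the precipitated protein, and the reagent list of the paper gives a goat antibody against Tia1 for iCLIP. The antibody recorded with the samples, however, is one raised in goat against its relative Tial1, and this difference was not resolved here. The protein is called Tia1 below.

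Heat shock proteins are molecular chaperones that help other proteins fold and keep unfolded chains from aggregating. Hsp70 proteins bind exposed stretches of a chain in a cycle driven by ATP, J-domain proteins bring them clients, nucleotide exchange factors release the clients, and Hsp90 completes the folding of kinases, receptors and other signalling proteins. Heat and other insults activate the transcription factor Hsf1, which raises the inducible members, while constitutive members are abundant in growing cells. Tia1 binds U-rich RNA and gathers untranslated mRNAs in stress granules, and HSP mRNAs are known as transcripts that many cells keep translating, and keep out of these granules, during heat shock.

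The unit is the cDNA, counted after removal of PCR duplicates, at nucleotides that passed the authors' false discovery rate (FDR) filter, called low-FDR sites. Replicate 1 held 639108 cDNAs at 342732 such sites and replicate 2 held 165081 cDNAs at 93512 sites, so 0 cDNAs in replicate 2 is a weaker observation than 0 in replicate 1. B cell markers were present, with 5 of 6 listed genes carrying 3′UTR sites in both replicates and 2845 and 651 cDNAs over the list in replicates 1 and 2. T cell markers had 4 and 0 cDNAs and 3 of 4 genes at 0, the myeloid markers had 29 and 6 cDNAs and 2 of 4 genes at 0, and both erythroid globin genes were at 0. The abundance of each mRNA was not measured here, so more binding per molecule and more molecules cannot be told apart, and intervals cover counting error only.

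The sequences at the most used 3′UTR sites are shown first, because the crosslinked nucleotides can be read in them directly. Each line gives 29 nt read along the transcript (DNA letters of GRCm38, T standing for U), with every low-FDR nucleotide of the list made from both replicates in capitals.

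Hsph1 (chr5:149617399-149617427, minus strand): TTataTTTTCTTTTTTTTaAgactgtcta
Dnajb1 distal (chr8:83611661-83611689, plus strand): atgtaaatatgTTtTTataaTTCcattgG
Dnajb1 proximal (chr8:83611181-83611209, plus strand): cactGtgtgggaggTtcTtgtTTtaTctg
Hsp90ab1 (chr17:45567840-45567868, minus strand): gcaggGttgggtGTTAtGTATTgtgGttt
Dnaja1 (chr4:40733020-40733048, plus strand): acttggctatTGTTTTTGTTTTAATaTTC
Hspe1 (chr1:55091195-55091223, plus strand): TccaTgcctCcCTTTTATAaTaaaCagat
Hsf1 (chr15:76500898-76500926, plus strand): tcataaaattgTATTTtggaTTTTTaCat

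These 7 windows are centred on a highest 3′UTR site of each of the 6 members with the most 3′UTR cDNAs (Dnaja1 has 3 tied sites, of which the one highest in replicate 2 lies beyond the window), and another is shown for Dnajb1 because its cDNAs were split between a pair of places. Hsph1 and Dnaja1 were crosslinked along long runs of U. Hsp90ab1 was crosslinked in a sequence of G and U, and Hspe1 in a pyrimidine stretch that runs into an A-rich one. Over all 10 members, 111 of the 166 low-FDR nucleotides in 3′UTRs were U (66.9%).

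In the 3′UTR, Tia1 cDNAs were found on all 10 members in replicate 1 and on 7 in replicate 2. The members together carried 307 cDNAs in replicate 1 and 129 in replicate 2, and 4 of them, Hsph1, Hsp90ab1, Dnaja1 and Hspe1, held 83.7% of these in each replicate, with exact 95% intervals of 79.1 to 87.7 in replicate 1 and 76.2 to 89.6 in replicate 2. Where a target is taken as a gene with a 3′UTR site in both experiments, 1 of the definitions used in the study, 7 of the 10 members met it. Among the 7811 genes with an annotated 3′UTR and an exonic site, 59.2% did, so the share of the members was near that of all genes. The 3 that did not meet it were Hsp90aa1, Hspa8 and Hspd1.

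**Figure D1:**
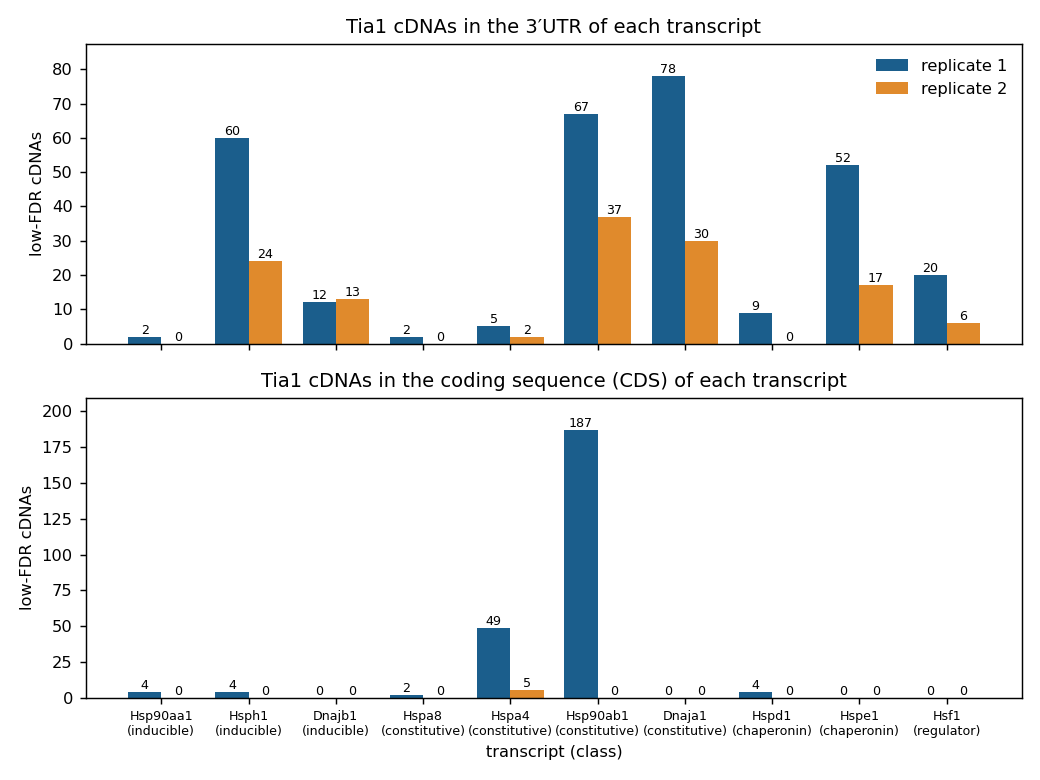
Low-FDR Tia1 cDNAs (vertical axes) in the 3′UTR (top) and coding sequence (bottom) of each of the 10 transcripts (horizontal axis, with its class), in replicate 1 (blue) and replicate 2 (orange), with the count printed on each bar. In the 3′UTR, Dnaja1, Hsp90ab1, Hsph1 and Hspe1 stand above the rest in both replicates. In the coding sequence, Hsp90ab1 has 187 cDNAs in replicate 1 and no called site in replicate 2.

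Among the inducible members, Hsph1 (Hsp105, a large relative of Hsp70 that serves it as a nucleotide exchange factor) had 60 3′UTR cDNAs in replicate 1 and 24 in replicate 2. Its longest annotated 3′UTR spans chr5:149616544-149617506 (minus strand, 963 nt). A single cluster, formed by joining sites up to 15 nt apart, held 52 of the 60 cDNAs in replicate 1 (86.7%, exact 95% interval 75.4 to 94.1) and all 24 in replicate 2. It lay 62 to 135 nt after the stop codon, and its highest site, in the run of U printed above, had 12 and 3 cDNAs in replicates 1 and 2. The remaining 8 cDNAs of replicate 1 were in 2 small clusters of 4 each, 369 to 398 nt and 465 to 473 nt after the stop codon, so both replicates placed most of the contacts in the same U-rich place.

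Dnajb1 (Hsp40, the J-domain protein that is strongly raised by heat and stimulates the ATPase of Hsp70) had 12 cDNAs in replicate 1 and 13 in replicate 2. The cDNAs fell into 2 clusters in the 1834-nt 3′UTR (chr8:83610820-83612653, plus strand). The distal one, 853 to 870 nt after the stop codon, held 6 and 8 cDNAs in replicates 1 and 2, and the proximal one, at 366 to 409 nt, held 6 and 5. No single nucleotide of Dnajb1 exceeded 3 cDNAs in both replicates together, and the clusters did not differ beyond their counting intervals (50.0%, 21.1 to 78.9, for the distal one in replicate 1, and 61.5%, 31.6 to 86.1, in replicate 2).

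Hsp90aa1 (Hsp90α, the inducible form of Hsp90) had few low-FDR Tia1 sites. Between the first and last of these, 8 of the 25 cDNAs of both replicates together passed the filter. Replicate 1 had 2 cDNAs in its 935-nt 3′UTR and replicate 2 had none. The list made from both replicates held 3 sites of 1 cDNA each, within 7 nt, and their sequence is shown to set it beside the others:

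Hsp90aa1 (chr12:110691311-110691339, minus strand): cctactgtTcatGtTtgctctggtctgaa

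The window holds fewer called nucleotides than any of the 7 above. The inducible class therefore ranged between 60 and 2 cDNAs in replicate 1 and between 24 and 0 in replicate 2.

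Among the constitutive members, Dnaja1 (a J-domain protein of the cytosol that is partnered with Hspa8) had the most 3′UTR cDNAs of all 10, with 78 in replicate 1 and 30 in replicate 2. Its longest 3′UTR is 4203 nt (chr4:40732947-40737149, plus strand), yet all of these cDNAs were in 1 cluster of 45 nt, 84 to 128 nt after the stop codon. The rest of this long 3′UTR carried no low-FDR site. Within the cluster 3 nucleotides reached 12 cDNAs each over both replicates. They lay 88, 100 and 118 nt after the stop codon, with 11, 12 and 4 cDNAs in replicate 1 and 1, 0 and 8 in replicate 2, so the highest nucleotide was not the same in both. By its pair of 3′UTR counts (Euclidean distance of log2 of cDNAs + 1 over the 2 replicates), the genes most like Dnaja1 were Dot1l with 78 and 30 cDNAs, Rbx1 with 79 and 30, and Ube3c with 76 and 30 in replicates 1 and 2.

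Hsp90ab1 (Hsp90β, the constitutive form of Hsp90) had 67 3′UTR cDNAs in replicate 1 and 37 in replicate 2, in a 3′UTR of only 240 nt (chr17:45567775-45568014, minus strand). Its main cluster, 133 to 172 nt after the stop codon, held 41 of the 67 cDNAs in replicate 1 (61.2%, exact 95% interval 48.5 to 72.9) and all 37 in replicate 2. One nucleotide, 161 nt after the stop codon, had 18 cDNAs in each replicate, the highest count of any site of the 10 members. The other 26 cDNAs of replicate 1 lay upstream in 3 smaller clusters, of 14, 6 and 6 cDNAs, that were not called in replicate 2.

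Hspa4 (Apg-2, an Hsp70 relative that acts as a nucleotide exchange factor) had 5 and 2 3′UTR cDNAs in replicates 1 and 2, all of them at 1 nucleotide, 2 nt after the stop codon, in a 3′UTR of 1798 nt. Hspa8 (Hsc70, the constitutive cytosolic Hsp70) had 2 cDNAs in replicate 1 and none in replicate 2, also at a nucleotide 2 nt after the stop codon, in a 3′UTR of 83 nt. Their windows are shown because in both the called nucleotides run across the end of the coding sequence:

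Hspa4 (chr11:53261596-53261624, minus strand): ggacaTtgATtGatTccaacacttgttta
Hspa8 (chr9:40805105-40805133, plus strand): agaggtggATtaagTcagtccaagaaggt

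The 29 nt of Hspa4 held 9 cDNAs in replicate 1 and 3 in replicate 2, coding nucleotides included, and those of Hspa8 held 4 and 0. The constitutive class thus held the member with the most 3′UTR cDNAs of the 10, Dnaja1. It also held Hspa8, which tied with the inducible Hsp90aa1 for the fewest over both replicates.

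The chaperonins form the mitochondrial folding chamber, with Hspd1 (Hsp60) as the barrel and Hspe1 (Hsp10) as its lid, and their genes share a promoter and are transcribed in opposite directions. Hspe1 had 52 cDNAs in replicate 1 and 17 in replicate 2, all in 1 cluster of 31 nt in its 187-nt 3′UTR (chr1:55091121-55091307, plus strand). The highest site, 89 nt after the stop codon, had 14 and 4 cDNAs. Hspd1 had 9 cDNAs in replicate 1 and none called in replicate 2, in clusters 144 to 148 nt and 273 to 288 nt after the stop codon. Since the count made from both replicates together equals their sum, the cDNAs of replicate 2 at the 7 sites of Hspd1 called in replicate 1 can be recovered. There were 3 beside the 9 of replicate 1, a share with an exact 95% interval of 5.49% to 57.2%, compared with 18.2% over the 3′UTRs of all genes. With recovered cDNAs 8 of the 10 members had 3′UTR cDNAs in both replicates. The share of all genes by this looser count is not given here, so the 8 cannot be set beside other genes.

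Hsf1, the transcription factor that controls the heat shock genes, had 20 cDNAs in replicate 1 and 6 in replicate 2. All lay within 49 nt, 550 to 598 nt after the stop codon of a 621-nt 3′UTR (chr15:76500348-76500968, plus strand), near its end. No nucleotide exceeded 4 cDNAs over both replicates, and 2 reached that count, so the contacts of Hsf1 were spread over its cluster.

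**Figure D2:**
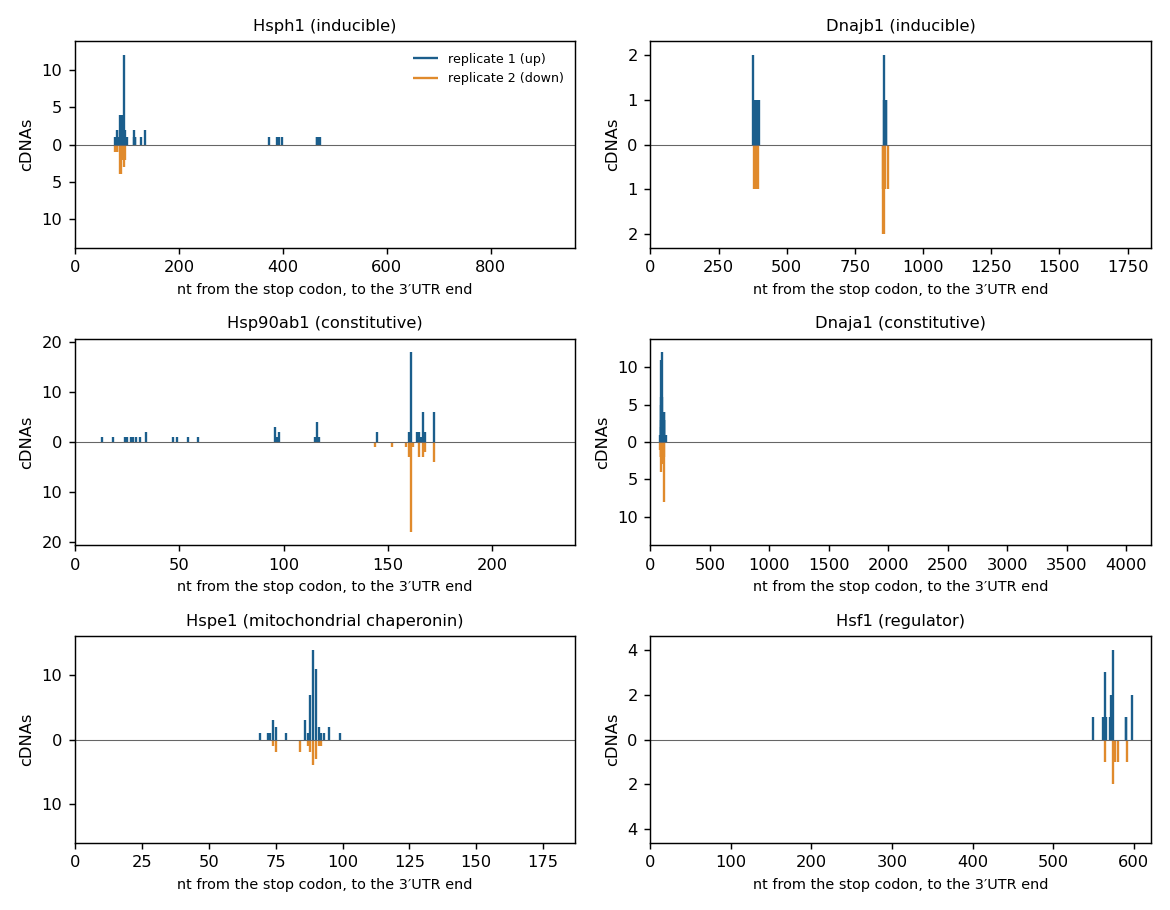
Low-FDR cDNAs (vertical axes, replicate 1 up in blue, replicate 2 down in orange) against the distance from the stop codon in nt, to the end of the longest annotated 3′UTR, for the 6 members with the most 3′UTR cDNAs. Contacts of Dnaja1, Hspe1 and Hsf1 lie in 1 cluster each in both replicates, and those of Dnajb1 in 2. The upstream sites of Hsp90ab1 and the later sites of Hsph1 were called as low-FDR sites in replicate 1 but not in replicate 2.

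Taking all members, 5 had their whole 3′UTR signal of the list made from both replicates in 1 cluster (Hsp90aa1, Hspa8, Dnaja1, Hspe1 and Hsf1). In 7, over 90% of the summed replicate cDNAs were in 1 cluster, which for Hsp90aa1, Hspa8 and Hspa4 rests on 2, 2 and 7 cDNAs. The shares of all genes with such patterns are not given here, so neither count can be read as a trait of the members.

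Levels were then scaled to depth and length, as cDNAs per kb of the longest 3′UTR and per 1000000 3′UTR cDNAs of the replicate, so that members could be ordered. Hsp90ab1 was first with 556 and 1150 in replicates 1 and 2 (853 ± 420, mean ± SD, n = 2), and Hspe1 followed with 554 and 678 (616 ± 87.9). The values of these neighbours overlapped. Hsph1 came next with 124 and 186 (155 ± 43.7), below both and apart from them in each replicate, then Hsf1 with 64.1 and 72.1 (68.1 ± 5.61) and Dnaja1 with 37.0 and 53.2 (45.1 ± 11.5). From Dnaja1 down through Dnajb1 (13.0 and 52.9), Hspa8 (48.0 and 0), Hspd1 (39.6 and 0) and Hspa4 (5.54 and 8.30), each neighbour overlapped the next. Hsp90aa1 was last with 4.26 and 0, below both values of Hspa4. Relative to all 6885 genes with a 3′UTR cDNA, summed over both replicates, Hsp90ab1 and Hspe1 lay at percentiles 96.1 and 95.3 of cDNAs per kb, Hsph1 at 78.2, and Hsp90aa1 at 8.83. Without division by length, Hsp90ab1 ranked 1468 and Hspe1 1997 of these genes. Dnaja1, with its long 3′UTR, ranked 1408 but lay at percentile 52.8 per kb, so the standing of a member depended on length.

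The class contrast asked whether inducible and constitutive transcripts differed in 3′UTR cDNAs per kb. The median over the 3 inducible members was 6.54 cDNAs per kb in replicate 1, against 21.3 over the 4 constitutive members, a log2 ratio of -1.70. In replicate 2 it was 7.09 over the inducible members, against 4.13 over the constitutive members, a log2 ratio of 0.78. The order of the classes was therefore opposite in the 2 replicates, and the spread within each class, between 2.14 and 62.3 cDNAs per kb for inducible and between 2.78 and 279 for constitutive members in replicate 1, was wider than the gap between their medians. Without division by length the inducible medians were 12 and 13 cDNAs in replicates 1 and 2, against constitutive medians of 36 and 16. With sums in place of medians, the inducible class had 19.8 and 9.91 cDNAs per kb of its summed 3′UTRs, against 24.04 and 10.9 for the constitutive class. Members are not replicates and 2 samples of 1 group allow no test over samples, so no p is given.

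**Figure D3:**
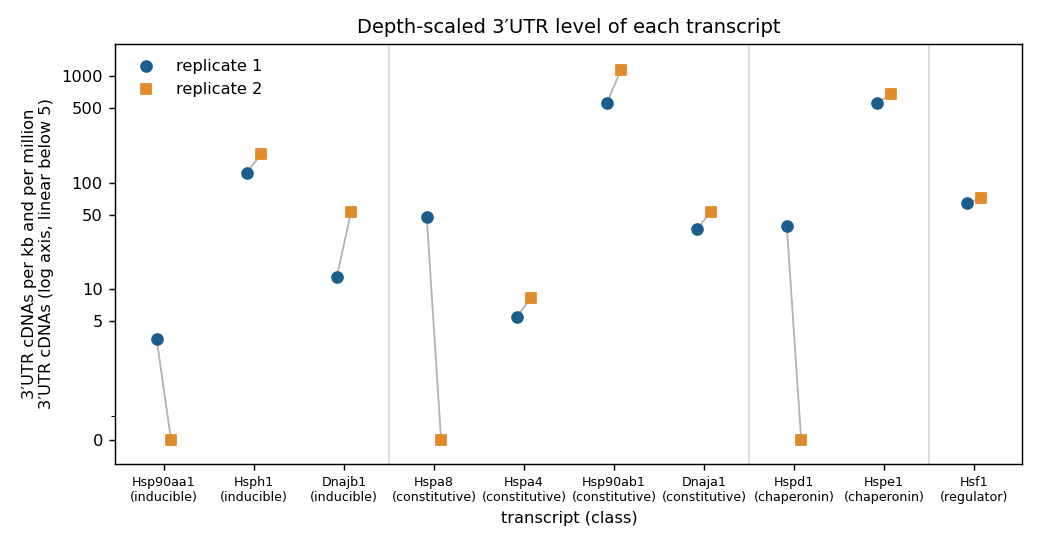
cDNAs in the 3′UTR per kb and per 1000000 3′UTR cDNAs of the replicate (vertical axis, logarithmic above 5 and linear below) for each of the 10 transcripts (horizontal axis, grouped by class, with inducible members at the left), in replicate 1 (blue circles) and replicate 2 (orange squares), joined by a line. Inducible members span 4.26 to 124 in replicate 1 and constitutive members 5.54 to 556, so the classes overlap.

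The 2 experiments could differ on a gene beyond counting error, and this was tested with a two-sided Fisher's exact test of the replicate 2 share of 3′UTR cDNAs, adjusted by Benjamini-Hochberg over the 3941 genes with at least 20 cDNAs. Over all genes replicate 2 held 21.1% of the 3′UTR cDNAs. Of the 6 members that could be tested, 2 were called, Dnajb1 with 52.0% (exact 95% interval 31.3 to 72.2, adjusted p = 0.00766) and Hsp90ab1 with 35.6% (26.4 to 45.6, adjusted p = 0.00774), beside 18.9% of all genes tested, or 7% in the same, higher direction. The other 4, Hsph1 (28.6%), Dnaja1 (27.8%), Hspe1 (24.6%) and Hsf1 (23.1%), were not called, with adjusted p between 0.261 and 0.939. So Dnajb1, among the lower members in replicate 1, was close to Dnaja1 in depth-scaled level per kb in replicate 2.

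In the coding sequence (CDS), contacts were concentrated on Hsp90ab1 and Hspa4. Hsp90ab1 had 187 CDS cDNAs at 117 sites in replicate 1, which ranked it 15 of the 2805 genes with a CDS cDNA there, and Hspa4 had 49 at 36 sites. In replicate 2, Hsp90ab1 had no called CDS site and Hspa4 had 5 cDNAs at 4 sites. Hsp90aa1, Hsph1 and Hspd1 each had 4 CDS cDNAs in replicate 1, Hspa8 had 2, and Dnajb1, Dnaja1, Hspe1 and Hsf1 had none. Besides Hspa4, no member had a called CDS site in replicate 2.

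Of its CDS and 3′UTR cDNAs, Hsp90ab1 had 73.6% in the CDS in replicate 1 (exact 95% interval 67.7 to 78.9), and Hspa4 had 90.7% (79.7 to 96.9), against 7.72% over all genes. Both shares were higher in replicate 1 (two-sided Fisher's exact test with Benjamini-Hochberg adjustment over 3858 genes, adjusted p = 4.34e-146 for Hsp90ab1 and 5.16e-47 for Hspa4), where 16.3% of all genes tested were called in that direction. Dnaja1, with 0 of 78 cDNAs in the CDS, was lower by the same Fisher's exact test (adjusted p = 0.0123), where 29.5% of all genes were, but only 3.46% of the 31-nt windows of its CDS occur once in the genome, so that few single-hit reads could fall there. In replicate 2, Hsp90ab1 had 0 of 37 low-FDR cDNAs in the CDS (exact 95% interval up to 9.49%). It was not called there by the same Fisher's exact test (adjusted p = 0.742). Both the interval and this p hold for called cDNAs only. They do not bound the CDS share before the filter, which left out replicate 2 CDS cDNAs described below. Hspa4 had 5 of 7 in replicate 2 and was below the minimum of 20 cDNAs for the test. A call needed both replicates in the same direction, and none of the 3 members that could be tested in both was called. Over all 1625 genes tested in both, 6.09% were called higher and 3.75% lower.

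At a nucleotide called in 1 replicate, the cDNAs of the other replicate can be recovered, since the count made from both replicates together equals their sum. At the 117 CDS sites of Hsp90ab1 called in replicate 1, replicate 2 had 15 cDNAs beside the 187 of replicate 1, a share of 7.43% (exact 95% interval 4.22 to 11.95). Over the CDS of all genes the share at such sites was 10.6%, and in 3′UTRs 18.2%. For the 36 CDS sites of Hspa4 it was 6 beside 49, or 10.9% (4.11 to 22.2). With the recovered cDNAs, Hsp90ab1 had 26.3% of its replicate 2 cDNAs in the CDS (15 of 57, exact 95% interval 15.5 to 39.7). Over all genes the share was 4.57%, and the CDS share of Hsp90ab1 was then called higher in both replicates (Fisher's exact test, adjusted p = 6.56e-07 in replicate 2). All 15 of these CDS cDNAs lay at nucleotides chosen by replicate 1, where the CDS share was high. The call in replicate 2 is thus not independent of replicate 1 and cannot decide whether both replicates have a higher share. The recovered counts show only that replicate 2 had CDS cDNAs on Hsp90ab1 at nucleotides that it did not pass as low-FDR sites by itself.

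The CDS contacts of Hsp90ab1 were spread over 9 of its 10 coding exons but were densest near the start. Exons 2 and 3 of the annotated transcript held 93 of the 187 cDNAs of replicate 1 (49.7%, exact 95% interval 42.4 to 57.1) in 16.3% of the coding nucleotides. In the list made from both replicates, exon 2 (chr17:45571765-45571911, minus strand) had 43.5 cDNAs per 100 coding nt, exon 3 had 19.3, exon 4 had 10.6, exon 5 had none, and exons 6 to 11 had between 4.05 and 8.41. The highest coding nucleotide had 16 cDNAs in replicate 1 and 0 called in replicate 2, close to the 18 of the 3′UTR peak. Hspa4 showed no such peak, with sites in 9 of 19 coding exons and at most 4 cDNAs at a nucleotide over both replicates. The windows at the highest coding nucleotide of each are shown to set them beside the 3′UTR ones, the first 4 nt of that of Hspa4 being intronic:

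Hsp90ab1 exon 2 (chr17:45571783-45571811, minus strand): caaacaagGaGaTTTtcctcCGcgagttg
Hspa4 exon 10 (chr11:53272096-53272124, minus strand): ctagtgtgcaaTTtTatCacctgctttca

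The coding window of Hsp90ab1 had 24.1% U and that of Hspa4 41.4%, compared with 44.8% in the 3′UTR window of Hsp90ab1 and 62.1% in that of Hsph1. Of the 132 CDS nucleotides of Hsp90ab1 called in both replicates together, 39.4% were U, compared with 76.5% of the 51 of Hspa4. In the 3′UTR, 44.1% of the 34 nucleotides of Hsp90ab1 and 73.0% of the 37 of Hsph1 were U. The U share of Hsp90ab1 was thus below that of Hspa4 in the CDS and below that of Hsph1 in the 3′UTR, which was not tested.

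**Figure D4:**
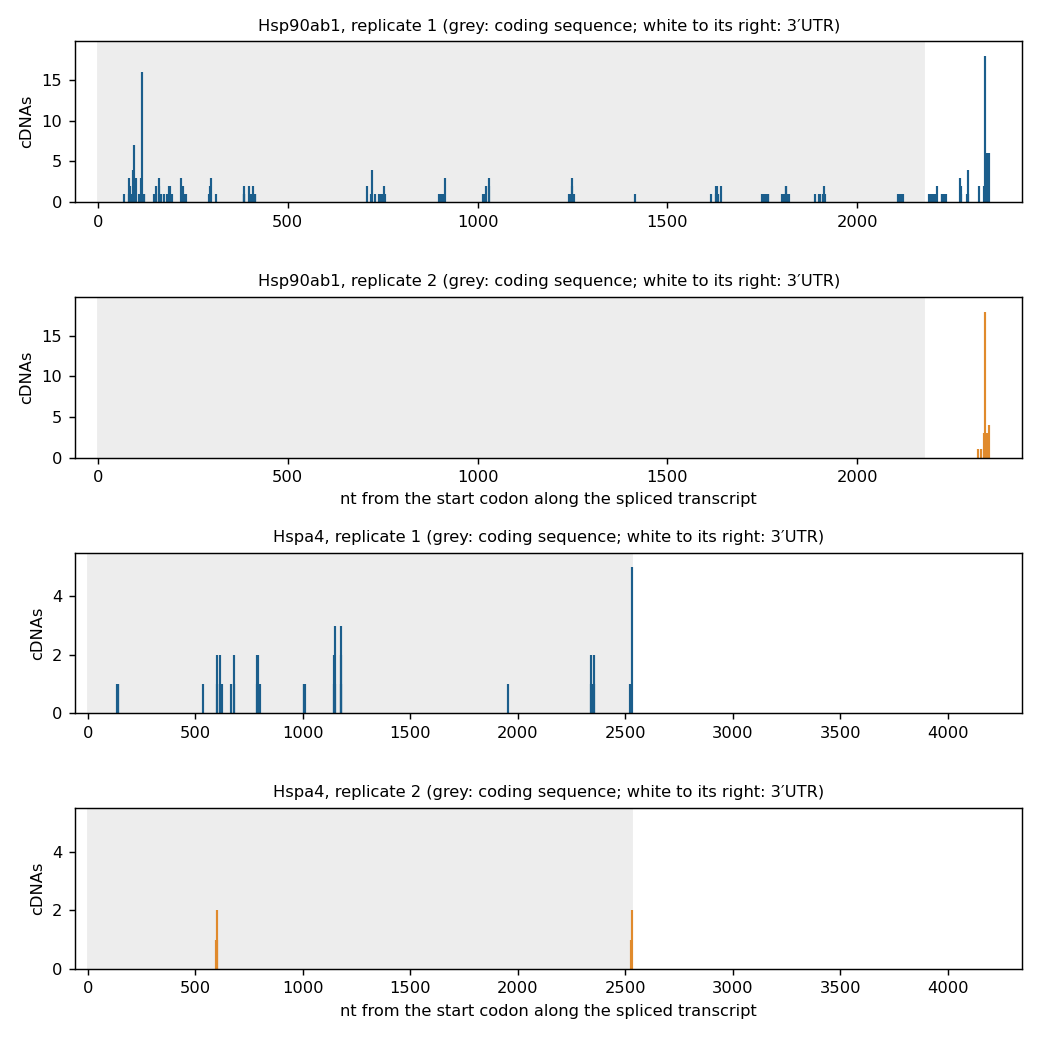
Low-FDR cDNAs (vertical axes) against the distance from the start codon in nt along the spliced transcript, for Hsp90ab1 (upper pair of panels) and Hspa4 (lower pair), replicate 1 in blue and replicate 2 in orange, with the coding sequence in grey. Hsp90ab1 has a coding peak of 16 cDNAs near the start codon and a 3′UTR peak of 18 in replicate 1, and the 3′UTR peak of 18 alone in replicate 2.

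Outside CDS and 3′UTR the members had few sites. Hspa8, whose introns hold small nucleolar RNA (snoRNA) genes, had 8 cDNAs over both replicates in its 5′UTR, 5 in exons of non-coding transcripts of the gene and 4 in introns, and a further 6 fell in Snord14c or Snord14e and could not be given to 1 gene. Hspe1 had 5 intronic cDNAs and Dnaja1 had 4 in a non-coding exon. Without those of the snoRNA genes, these were 26 of the 798 cDNAs of the 10 members in the list made from both replicates.

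U content was compared between the sites and the rest of the same 3′UTR, because Tia1 is known to bind U-rich RNA. A window of 31 nt, cut short where it passed an end of the 3′UTR, was centred on every site. Its percentage of U, weighted by cDNAs, was taken minus the mean over all such windows of that 3′UTR. In replicates 1 and 2, Hsph1 was 22.9 and 27.8 percentage points above its own 3′UTR, Dnaja1 20.3 and 18.1, Dnajb1 19.97 and 20.5, Hsf1 20.3 and 19.8, Hspa4 18.0 and 18.0, and Hsp90ab1 10.6 and 18.2. Both values of Hspa4 come from the same nucleotide, with 5 and 2 cDNAs and a window cut short at the stop codon, so they are equal by construction. Hspe1 differed least among the targets, by 2.37 and 3.07 points, although its level was among the highest. The sites of Hspa8 were 6.00 points below its 3′UTR, on 2 cDNAs. The median over members with a site was 14.3 points in replicate 1 and 18.2 in replicate 2, compared with 14.7 and 17.6 over all genes, so the members as a list lay close to the other genes.

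The motif TTTTT, searched on the transcript strand in the 29 nt at the highest 3′UTR site, was present in 4 of 10 members (Hsph1, Dnajb1, Dnaja1 and Hsf1) and in 50.9% of 7300 genes. The AU-rich motif ATTTA was in none of the 10 windows and in 12.7% of all genes. The highest 3′UTR nucleotide was U in all 10 members, and in 95.3% of all genes.

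Several HSP genes have processed pseudogenes, copies of the mRNA inserted elsewhere in the genome, and the study describes the counted reads as single hits in the genome. The 31-nt windows within exons were therefore looked up in the whole genome. In the CDS, 9.52% of those of Hsp90aa1 occurred once, compared with 100% for Hsph1 and Dnajb1, and among constitutive members 3.29% for Hspa8 and 3.46% for Dnaja1, compared with 78.1% for Hsp90ab1 and 100% for Hspa4. In the 3′UTR the unique share was 48.5% for Hsp90aa1, 15.1% for Hspa8, 46.7% for Hsp90ab1 and 85.9% for Dnaja1, and for the chaperonins Hspd1 and Hspe1 it was 12.8% and 12.7%. Hspa8 shared windows with 13 annotated pseudogenes, Hspd1 with 19, Hsp90ab1 with 15 and Hsp90aa1 with 8. These pseudogenes themselves held few cDNAs over both replicates, with none for Hspa8, 3 for Hspd1, 21 for Hsp90ab1 and 10 for Hsp90aa1. Where only single hits are counted, a read from a shared window counts on neither copy. The low pseudogene counts therefore cannot show how many reads were lost.

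**Figure D5:**
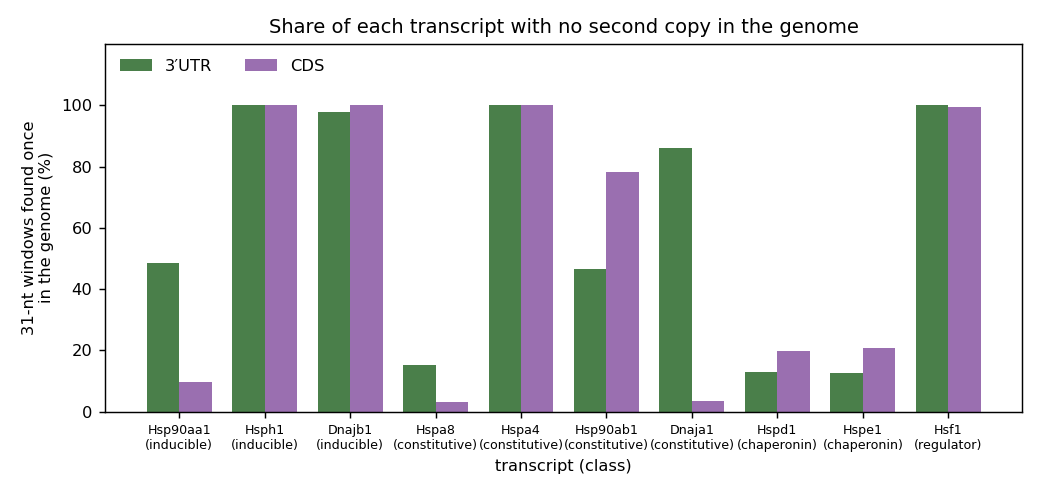
Percentage of the 31-nt windows within exons that occur once in the genome (vertical axis), for the 3′UTR (green) and the coding sequence (purple) of each of the 10 transcripts (horizontal axis, with its class). Hsph1 and Hspa4 are at 100% in both, whereas the coding sequences of Hsp90aa1, Hspa8 and Dnaja1 are at 9.52%, 3.29% and 3.46%.

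The low counts of Hsp90aa1, Hspa8 and Hspd1, and the absence of CDS sites on Dnaja1 and Hspe1, were thus measured where most of the sequence is not unique, and their part in these low values was not tested. The sites that were called did not all begin in unique sequence either: the 31 nt that start at the site were unique for 51 of the 108 3′UTR cDNAs of Dnaja1, 57 of 69 of Hspe1, 96 of 111 of Hsp90ab1 and 8 of 12 of Hspd1, and for all 3′UTR cDNAs of the other 6 members. For the 220 CDS cDNAs of Hsp90ab1 they were unique in 215. Per kb of 3′UTR that is unique in this sense, Hsp90aa1 had 4.26 cDNAs in replicate 1, Hsph1 62.3 and Dnajb1 6.68, and the constitutive members Hspa8, Hspa4, Hsp90ab1 and Dnaja1 had 55.6, 2.78, 433 and 10.8. The chaperonins moved most on this scale, Hspe1 to 935 and Hspd1 to 70.6 cDNAs per kb in replicate 1, compared with 278 and 19.9 per kb of the whole 3′UTR. In replicate 2 the values were 0, 24.9 and 7.23 for Hsp90aa1, Hsph1 and Dnajb1, 0, 1.11, 291 and 3.32 for Hspa8, Hspa4, Hsp90ab1 and Dnaja1, and 304 and 0 for Hspe1 and Hspd1. This scale counted only cDNAs at unique nucleotides, which were 46 nt of the 3′UTR for Hspe1 and 127 nt for Hsp90ab1. On it Hspe1 was above Hsp90ab1 in both replicates, in replicate 2 only by 304 against 291, a difference that was not tested. The first place in the order of levels thus depended on which length was used.

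The wider chaperone network was described with a list of 56 other genes, of which 46 had an exonic site and an annotated 3′UTR. Of the 46, 33 had a 3′UTR site in both replicates (71.7%, beside 59.2% of all genes), 9 in replicate 1 only and 4 in neither. Their median was 22.5 summed 3′UTR cDNAs, compared with 27 over all genes with any. The highest were Cct2 (289 and 106 cDNAs in replicates 1 and 2) and Cct8 (211 and 104), subunits of the cytosolic chaperonin that folds actin and tubulin, St13 (223 and 39), a cofactor of Hsp70 also called Hip, Hspa9 (120 and 60), the mitochondrial Hsp70, and the J-domain genes Dnajc8 (122 and 35), Dnaja3 (110 and 44), Dnaja2 (130 and 23) and Dnajc7 (109 and 17). All 8 exceeded each of the 10 members in replicate 1.

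By role, a 3′UTR site in both replicates was found for 11 of 14 J-domain genes in that background, 9 of 11 cochaperones of Hsp90 and Hsp70, 5 of 7 subunits of the CCT chaperonin, 3 of 5 further Hsp70 genes and 3 of 5 Bag nucleotide exchange factors. Outside the background, with no site in the list made from both replicates, were Hspa1a and Hspa1b, the heat-inducible Hsp70 genes, the small heat shock proteins Hspb1, Hspb8 and Cryab, and Bag3, Dnaja4, Stub1 and Unc45a. Cct6a also fell outside it, for want of an annotated 3′UTR, and its 212 exonic cDNAs over both replicates were in exons annotated as non-coding. Hspa1a and Hspa1b are near-identical in sequence, so a count of 0 on either is uncertain.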

How the data were processed

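Per the labels and the methods, the authors mapped iCLIP reads to the mouse build mm9 (Ensembl 59) with the iCount pipeline and Bowtie (version not given in the sources used here), collapsed PCR duplicates by random barcodes and lifted the pooled list to mm10. The deposited value is a score: the number of unique cDNAs at a nucleotide, with a minus sign for the minus strand, not scaled to depth. Per the file headers, low-FDR sites had an FDR under 0.05 (100 permutations, 15 nt, regions taken separately), called on each replicate and on the sum of both. Replicate sites took the GRCm38 position of the same nucleotide in the authors' lifted list, which covered 98.9% and 99.1% of the cDNAs of replicates 1 and 2.

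Sites were annotated by strand with GENCODE M21, giving CDS precedence over 3′UTR, then 5′UTR, exons of non-coding transcripts and introns. Sites shared by several genes in 1 class were left out. Python 3.11.15, pandas 2.3.3 and scipy 1.17.1 were used, and the Fisher test of the replicate 2 share was tested on simulated data. UV dose and RNase concentration are stated differently in labels and methods. Sequences are from the RefSeq assembly of GRCm38. The members, lists and tests were chosen with earlier results of these data known. All 10 members were named, as were the 8 network genes with the most 3′UTR cDNAs, Hspa1a, Hspa1b, network genes outside the background, and the 3 genes nearest to the member with the most cDNAs.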

Additional observations from a re-analysis of the deposited data

How the results depend on the processing

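The sum of 3′UTR cDNAs over the members, 436 in both replicates, was 231 with only sites of at least 5 cDNAs and 129 to 307 with a replicate left out. The mean log2 ratio of inducible over constitutive 3′UTR cDNAs per kb, -0.46, turned to 0.34 with the chaperonins counted as inducible and to 0.87 with Dnaja1 counted as inducible, and ran between -1.70 and 0.78 with a replicate left out, 0.78 being the value without replicate 1. With sites of at least 5 cDNAs it gave no value, since the inducible medians were 0. The count of members with a CDS share called in both replicates, 0, was 1 (Hsp90ab1) with recovered cDNAs, where the CDS nucleotides of Hsp90ab1 were chosen by replicate 1. The count was 0 to 3 with a replicate left out, 3 (Hsp90ab1, Hspa4 and Dnaja1) without replicate 2, where that of Dnaja1 rests on a CDS of which 3.46% is unique. Of the 2 members called for their replicate 2 share, only Hsp90ab1 was called with sites of at least 5 cDNAs and with a minimum of 50 cDNAs. Dnajb1, with 25 summed 3′UTR cDNAs and at most 3 at a nucleotide, could not be tested in either setting. The median U difference of the members, 18.1 points on the mean of both replicates, was 14.3 to 18.2 with a replicate left out, 14.3 without replicate 2. Of the network genes, 33 were targets, 18 with sites of at least 5 cDNAs, and 33 to 42 with a replicate left out. The number of members with a 3′UTR site in both replicates, 7, was 5 to 10 over all alternatives run, for which the share of all genes is not given here. Leaving out a replicate could not be applied to the replicate 2 share, which needs both. No paired analysis was possible because there was 1 group. A site missing in replicate 2 was less detectable than in replicate 1, with 165081 cDNAs against 639108, and how far depth set the low counts of Hsp90aa1, Hspa8, Hspa4 and Hspd1 was not tested.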
